A study of Mus musculus with 4 samples.

Results

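The epidermal growth factor (EGF) receptor family was followed here through 10 genes in mouse skin: the receptor genes Egfr and Erbb2, the EGFR ligand genes Hbegf, Epgn, Areg, Ereg, Tgfa, Btc and Egf, and the neuregulin gene Nrg1. They were chosen by gene symbol, and all 10 were found among the 23282 symbols of the deposited tables. EGFR is a tyrosine kinase of the cell surface. Its ligands are made as membrane-bound precursors and set free by metalloproteases such as ADAM17. Ligand binding joins receptors into pairs and starts the RAS, RAF and ERK relay. ERBB2 binds no known ligand itself and acts as a partner of the other receptors, while neuregulins bind ERBB3 and ERBB4. In skin, EGFR signalling is known for keeping basal keratinocytes in growth, for wound closure and for hair follicle cycling.

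The libraries came from skin of adult C57BL/6 mice that were wild type (WT) or lacked Egr1 (knockout, KO), each either naive or given house dust mite (HDM) extract, which makes 4 groups. EGR1 is an immediate-early zinc finger transcription factor, and the series asks how it bears on HDM dermatitis and on the innervation of the epidermis. Per the labels, offspring of the Egr1-/- line were typed by PCR. Skin of the ear and neck was shaved and its barrier broken with sodium dodecyl sulfate (SDS), a detergent, after which HDM mice received 100 mg of HDM cream, 2 times per week for 3 weeks. The naive groups carry the treatment label SDS alone. Each group held 1 library, and the number of animals in it is not given in the sources used here. No comparison of groups therefore has a replicate error. The knockout was not limited to a cell type by any label.

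The libraries held 9443865 to 10129020 reads, recovered from the deposited log2 values. Markers of basal keratinocytes, with Krt5 at 16872 to 86154 reads and Krt14 at 6384 to 43925, were present in every library. Egr1 itself was higher, not lower, in both libraries labelled KO. Naive skin gave log2 values of 11.02 (WT) and 11.53 (KO), and HDM skin 10.31 (WT) and 11.68 (KO). Reads from the 3′ end need not cover what was disrupted in the gene, and where the Egr1 reads lay was not examined. Whether the genotype labels hold was not tested, and these libraries are called knockout-labelled from here on. The knockout-labelled naive library differed from the rest: it lacked any read of 336 genes for which all the others held at least 50, while 0 to 5 genes were missing from another library in this way. It held reads of 12880 genes, against 15547 to 16536 in the others. Counting intervals below do not cover this, for its high values as for its zeros. Naive and HDM libraries also differed in sex-linked transcripts, with 10 and 40 reads of Xist in naive against 2195 and 2432 in HDM skin. The Y-linked gene Ddx3y had 1925 and 2430 reads in naive against 1 and 1 in HDM skin, and Uty 543 and 233 against 1 and 0. By these transcripts the naive libraries were male and the HDM libraries female. HDM and sex cannot be told apart in any result below. Salivary acinar genes, 8 listed, took 7.11% of reads in WT naive and 0.822% in knockout-labelled naive skin, against 0.00729% and 0.00158% in the HDM libraries. Cartilage genes, 5 listed, took 0.257% in WT naive, 0.224% in knockout-labelled naive and 0.150% in WT HDM skin. In knockout-labelled HDM skin they took 0.000573%. In comparisons with that library, this difference cannot be told apart from genotype or HDM.

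Of the 10 genes, 6 lay above the expression filter, a mean log2 value over the 4 libraries greater than the median of all genes (5.11): Egfr, Erbb2, Hbegf, Epgn, Ereg and Btc. Areg, Tgfa, Egf and Nrg1 lay below it and are described from their reads. Differences of 2-fold and above between 2 libraries, 1 on the log2 scale, are counted. Folds carry exact 95% intervals from the reads (Clopper-Pearson), which cover counting error only. A library at 0 reads is taken to allow up to 3 reads, and a fold written "at least" is computed against those 3 reads, without the counting error of the other library. The exact lower limit, which includes it, stands beside each such fold.

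The genes Epgn, Ereg, Areg and Btc are neighbours on chromosome 5 (GRCm38, mm10), in that order over 375531 bases, with no other protein-coding gene inside the span. Epgn lies at 91027464 to 91035215, Ereg at 91074622 to 91093646, Areg at 91139599 to 91148432 (all plus strand) and Btc at 91357261 to 91402994 (minus strand). Egfr (11, 16752203 to 16918158) and Erbb2 (11, 98412470 to 98437716) are far apart on chromosome 11. Egf is on chromosome 3 (129677565 to 129755316), Tgfa on 6 (86195223 to 86275719), Nrg1 on 8 (31814551 to 32884029) and Hbegf on 18 (36504927 to 36515805).

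The promoters of Areg and Epgn are shown because both genes were near or at 0 reads in naive skin of at least 1 genotype and high in both HDM libraries. They are RefSeq sequences of GRCm38.p6, plus strand, and stop before the outermost annotated start. The Areg window is chr5:91139349-91139598 and the Epgn window chr5:91027267-91027463. Capitals mark matches to the TATA motif TATAAA and, in Areg, to the cyclic AMP response element TGACGTCA.
Areg: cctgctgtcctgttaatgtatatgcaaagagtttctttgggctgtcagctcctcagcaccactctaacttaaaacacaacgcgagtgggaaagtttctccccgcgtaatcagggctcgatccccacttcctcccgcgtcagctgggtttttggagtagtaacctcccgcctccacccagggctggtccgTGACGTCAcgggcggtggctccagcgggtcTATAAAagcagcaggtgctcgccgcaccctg
Epgn: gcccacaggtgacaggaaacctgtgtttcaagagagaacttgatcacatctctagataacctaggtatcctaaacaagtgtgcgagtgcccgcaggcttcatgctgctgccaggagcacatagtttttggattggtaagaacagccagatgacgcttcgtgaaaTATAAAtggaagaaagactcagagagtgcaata
The TATA match lay 26 to 31 bases before the Areg start and 28 to 33 bases before the Epgn start. The response element lay 54 to 61 bases before the Areg start. Of the 32851 promoter windows in the table (250 bases before the start, both strands searched), 12.4% held TATAAA and 1.55% held TGACGTCA. An EGR motif, GCGNGGGCG, was in 4.70% and the AP-1 motif TGANTCA in 6.75% of them. Windows were at hand for 7 of the 10 genes (not for Hbegf, Ereg and Nrg1), and none of their 8 windows held either of these 2 motifs. A match or its absence describes the letters of these windows only.

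**Figure D1:**
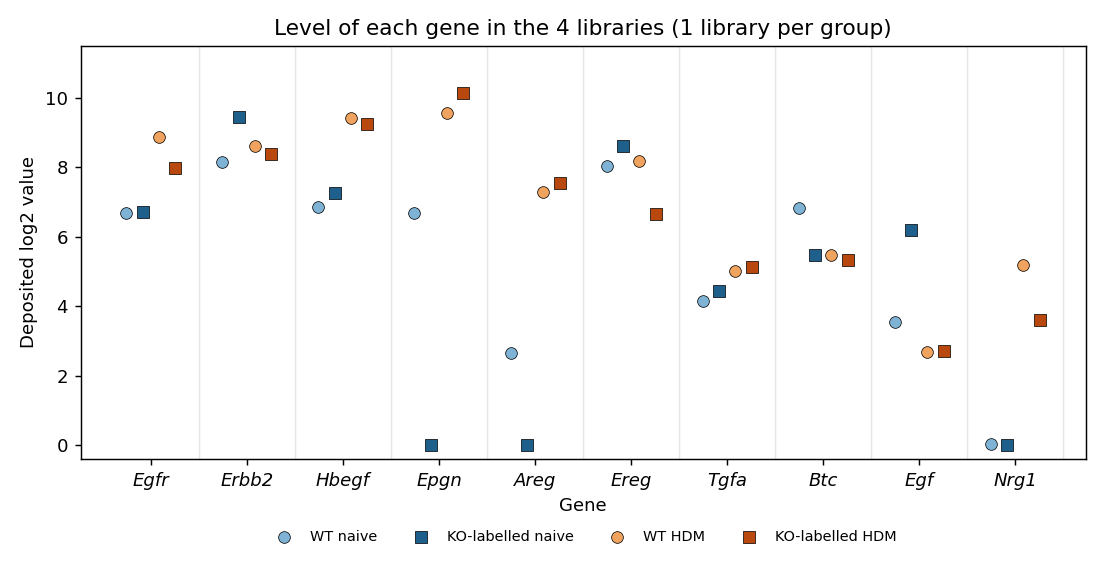
Deposited log2 value (vertical axis) of each of the 10 genes in the 4 libraries, 1 point per library, circles for WT and squares for knockout-labelled (KO-labelled in the plots), blue for naive and orange for HDM. Egfr, Hbegf, Epgn, Areg, Tgfa and Nrg1 are higher in both HDM points than in both naive points, and Epgn reaches 10.15 in knockout-labelled HDM skin from 0 in knockout-labelled naive skin.

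The receptor gene Egfr was higher with HDM in both genotypes. It had log2 values of 6.68 in WT naive, 6.72 in knockout-labelled naive, 8.88 in WT HDM and 7.997 in knockout-labelled HDM skin, from 96, 112, 436 and 271 reads. Both HDM libraries stood above both naive ones, and the naive libraries lay close together. With HDM, Egfr was 4.64-fold higher in WT skin (3.71 to 5.84) and 2.43-fold in knockout-labelled skin (1.94 to 3.05). In HDM skin the knockout-labelled library was 1.85-fold lower than WT (1.58 to 2.16), short of 2-fold. In naive skin the ratio was 1.03 (0.780 to 1.37), an interval that includes no difference. In bulk skin, more cells of a type and more RNA per cell cannot be told apart.

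Erbb2, the gene of the partner receptor, was highest in naive skin labelled knockout. It had log2 levels of 8.16 in WT naive, 9.46 in knockout-labelled naive, 8.61 in WT HDM and 8.37 in knockout-labelled HDM skin, from 269, 751, 361 and 352 reads. The knockout-labelled naive library was the high one, and the other 3 lay within 0.45 log2 units of each other. Erbb2 was thus 2.47-fold higher in knockout-labelled than in WT naive skin (2.15 to 2.86), and in HDM skin 1.18-fold lower (1.01 to 1.37), a difference that libraries scaled by total reads did not keep outside counting error (ratio 0.909, with an interval that includes equal levels). With HDM it was 2.13-fold lower in knockout-labelled skin (1.87 to 2.42) and 1.37-fold higher in WT skin (1.17 to 1.61). Against the WT naive library, the knockout-labelled HDM ratio was 1.16 (0.990 to 1.37), so the lower call rests on the knockout-labelled naive library. Erbb2 overlaps Mien1, a gene on the opposite strand, at its 3′ end, and whether the authors counted by strand is not given in the sources used here. Mien1 had 700, 370, 970 and 973 reads in the same order of libraries, lowest where Erbb2 was highest.

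Among the ligands, Hbegf, Epgn and Areg had higher values with HDM in both genotypes. Hbegf encodes heparin-binding EGF-like growth factor, a ligand known from wound edges. It stood at 6.87 in WT naive, 7.27 in knockout-labelled naive, 9.44 in WT HDM and 9.24 in knockout-labelled HDM skin, from 110, 164, 642 and 642 reads. The HDM libraries were both above the naive ones, and within a treatment the genotypes were near each other. Hbegf was 5.96-fold higher with HDM in WT skin (4.86 to 7.36) and 3.93-fold in knockout-labelled skin (3.30 to 4.69). Between genotypes it was 1.32-fold higher in knockout-labelled naive skin (1.03 to 1.70) and 1.15-fold lower in knockout-labelled HDM skin (1.03 to 1.28). Scaled by total reads, the HDM ratio was 0.932 (0.834 to 1.04), which includes equal levels.

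Epgn encodes epigen, an EGFR ligand of low affinity made by epithelia. Epgn stood at a log2 value of 6.68 in WT naive, 0 in knockout-labelled naive, 9.58 in WT HDM and 10.15 in knockout-labelled HDM skin, from 96, 0, 710 and 1209 reads. Both HDM libraries were high, and the knockout-labelled naive library alone had no read. With HDM, Epgn was 7.55-fold higher in WT skin (6.09 to 9.44) and at least 404-fold in knockout-labelled skin (exact lower limit 328). The knockout-labelled value rests on the library at 0. Of 1387 other genes with a like number of reads in WT naive skin, 160 were also at 0 reads in the knockout-labelled naive library. Among genes like Epgn in reads in HDM skin, 14 of 1232 (WT) and 6 of 896 (knockout-labelled) were at 0 there. Set against the WT naive library instead, knockout-labelled HDM skin was 11.2-fold higher (9.09 to 13.9). In HDM skin, Epgn was 1.48-fold higher in the knockout-labelled library than in WT (1.35 to 1.63).

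Areg encodes amphiregulin, which keratinocytes make and which also comes from T cells, innate lymphoid cells and mast cells. It had 5 reads in WT naive, 0 in knockout-labelled naive, 145 in WT HDM and 198 in knockout-labelled HDM skin, with log2 values of 2.66, 0, 7.30 and 7.55. Both naive libraries were thus near the limit of detection and both HDM libraries well above it. With HDM, Areg was 29.6-fold higher in WT skin (12.4 to 92.5) and at least 66.2-fold in knockout-labelled skin (exact lower limit 53.3). Against the WT naive library, knockout-labelled HDM skin was 35.2-fold higher (14.8 to 109.6). The genotypes differed 1.19-fold in HDM skin (0.955 to 1.48), within counting error on the deposited scale. Scaled by total reads, Areg was 1.27-fold higher in the knockout-labelled HDM library (1.02 to 1.59), an interval just above equal levels. In naive skin, 5 reads against 0 are too few for a fold between genotypes (exact lower limit 1.03). Of 445 other genes with a like number of reads in WT naive skin, 327 were at 0 there as well.

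Markers of the cell types that can make amphiregulin did not all move that way. The T cell and innate lymphoid list (6 of 6 genes found) summed to 1419 and 1042 RPM (reads scaled to the total of the library) in WT and knockout-labelled naive skin, against 499 and 609 in HDM skin, with Cd3d alone at 0, in knockout-labelled naive skin. Gata3 and Rora carried nearly all of that sum. In WT skin Cd3e went from 6 to 33 reads, Cd3d from 13 to 53, Il1rl1 from 132 to 211 and Cd3g from 61 to 54. In knockout-labelled skin Cd3e went from 84 to 23, Cd3g from 128 to 28, Il1rl1 from 294 to 210 and Cd3d from 0 to 12. Mast cell and basophil markers (5 of 5) summed to 543 and 641 in naive and 226 and 287 in HDM skin. Mcpt8 was at 0 in both naive libraries. Basal keratinocyte markers (7 of 7, none at 0) summed to 6072 and 4147 RPM in naive against 13766 and 13554 in HDM skin. Krt5 and Krt14 carried most of that sum, and 2 of the 7 genes in WT and 3 in knockout-labelled skin were higher by 2-fold, with 2 lower in each. Hair follicle markers (7 of 7) went from 690 and 381 to 2141 and 3971, with Krt71, Krt31, Krt85 and Krt35 at 0 in knockout-labelled naive skin. Sox9 carried most of both naive sums, and went from 6366 to 4910 reads in WT and from 3432 to 5516 in knockout-labelled skin. Krt25 led in HDM skin, with 8121 and 17642 reads. By 2-fold, 5 of the 7 genes in WT and 6 in knockout-labelled skin were higher, and 0 lower. Over all genes above the filter, 14.5% were higher and 12.7% lower in WT, and 21.7% and 18.2% in knockout-labelled skin. Krt71, Krt31 and Krt35 had naive log2 values of 3.66 and below, so they passed the filter through the HDM libraries. Neutrophil markers (4 of 5 found) went from 56.4 and 0.402 to 19576 and 8057, with S100a8 and S100a9 at 0 in knockout-labelled naive skin. These 2 genes carried nearly all of both HDM sums. Cxcr2 went from 16 to 196 reads in WT and from 3 to 163 in knockout-labelled skin, and Csf3r from 22 to 68 and from 1 to 70. The part of these lists in the values of Egfr, Hbegf, Epgn and Areg was not tested.

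**Figure D2:**
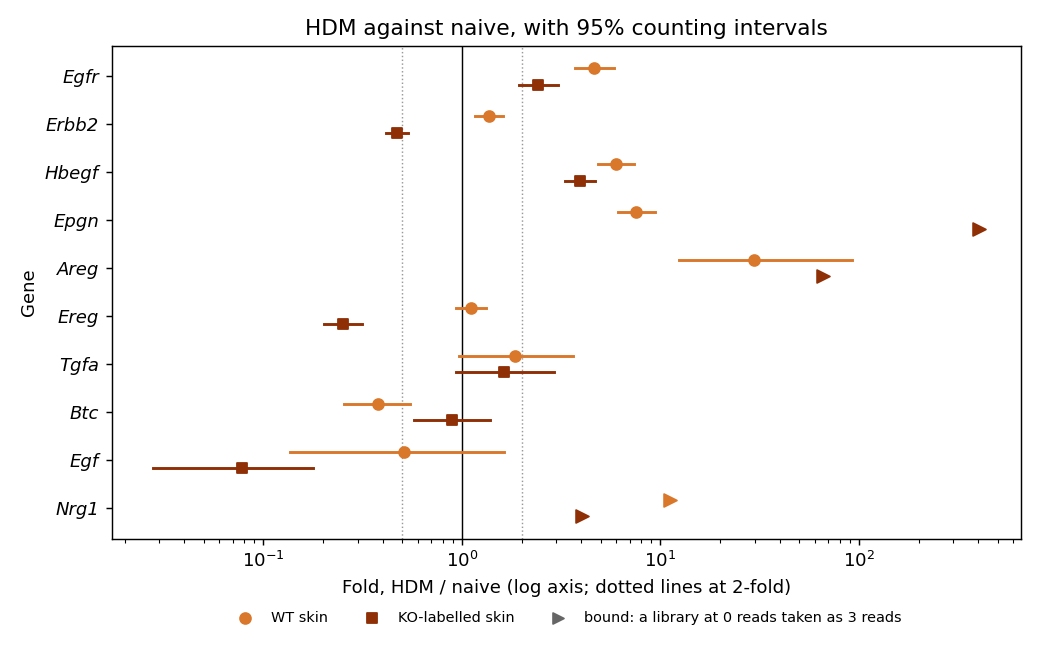
Fold of each gene in HDM against naive skin on a log axis, circles for WT and squares for knockout-labelled skin, with lines for 95% counting intervals and triangles for bounds where the naive library had 0 reads. Egfr, Hbegf, Epgn, Areg and Nrg1 lie to the right of 2-fold in both genotypes, Erbb2, Ereg and Egf lie to the left of 2-fold lower in knockout-labelled skin, and Btc in WT skin. Whether the genotypes differ in this was not tested.

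Ereg encodes epiregulin, a ligand of EGFR and ERBB4 that keratinocytes and macrophages can make. It stood at 8.04 in WT naive, 8.63 in knockout-labelled naive, 8.19 in WT HDM and 6.65 in knockout-labelled HDM skin, from 248, 421, 270 and 106 reads. The knockout-labelled HDM library was the low one. With HDM the ratio was 1.11 in WT skin (0.932 to 1.33), an interval that includes no difference, and Ereg was 3.96-fold lower in knockout-labelled skin (3.19 to 4.95). In HDM skin it was 2.92-fold lower in the knockout-labelled library than in WT (2.33 to 3.70), and in naive skin 1.505-fold higher (1.28 to 1.77). Ereg thus went against its neighbours Epgn and Areg in knockout-labelled skin. Macrophage markers (5 of 5, none at 0) summed to 237 RPM in WT naive, 651 in knockout-labelled naive, 494 in WT HDM and 436 in knockout-labelled HDM skin. The knockout-labelled HDM library was also the low one in cartilage markers (5 of 5 found, Col2a1 and Col9a1 at 0), at 5.73 RPM against 1502 to 2565 in the others. Suprabasal keratinocyte markers (6 of 6, none at 0) summed to 2990 RPM there against 8172 to 9809. Lor carried most of both naive sums, with 73598 (WT) and 66839 (knockout-labelled) reads, against 4367 in the knockout-labelled HDM library. Krt10 (4137 reads) and Dsg1a (1133) were also lowest there. Krt1, Krtdap and Ivl were below WT HDM skin there but above both naive libraries. Krt1 had 6858 reads against 942 (WT) and 497 (knockout-labelled) in naive skin. Krtdap had 12816 against 5927 and 9003, and Ivl 977 against 807 and 804. The part of these lists in the Ereg values was not tested.

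Tgfa, for transforming growth factor alpha, an autocrine ligand of keratinocytes, had few reads: 16 in WT naive, 22 in knockout-labelled naive, 29 in WT HDM and 36 in knockout-labelled HDM skin, or log2 values of 4.16, 4.43, 5.01 and 5.12. The HDM libraries were above the naive ones by less than 2-fold. The ratios were 1.85 in WT (0.972 to 3.65) and 1.64 in knockout-labelled skin (0.940 to 2.93), and neither interval excluded equal levels. Knockout-labelled HDM against WT naive skin gave 2.00 (1.08 to 3.86), from 36 and 16 reads, an interval just above equal levels.

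Btc encodes betacellulin, which binds EGFR and ERBB4. Its log2 level was 6.85 in WT naive, 5.49 in knockout-labelled naive, 5.46 in WT HDM and 5.34 in knockout-labelled HDM skin, from 108, 47, 40 and 42 reads. The WT naive library alone was high. Btc was therefore 2.64-fold lower with HDM in WT skin (1.82 to 3.90) and 2.59-fold lower in knockout-labelled than in WT naive skin (1.82 to 3.73). In knockout-labelled skin the HDM ratio was 0.896 (0.577 to 1.39).

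Egf, whose product salivary glands release in large amounts in mice, had 10 reads in WT naive, 77 in knockout-labelled naive, 5 in WT HDM and 6 in knockout-labelled HDM skin, or log2 values of 3.53, 6.19, 2.68 and 2.72. The knockout-labelled naive library was high and the others were near each other. With HDM, Egf was 12.8-fold lower in knockout-labelled skin (5.62 to 35.9), while in WT skin the ratio was 0.510 (0.137 to 1.64), within counting error. Against WT naive, knockout-labelled HDM skin gave 0.534 (0.159 to 1.62), so the lower call rests on the knockout-labelled naive library. In naive skin it was 6.83-fold higher in the knockout-labelled library than in WT (3.52 to 14.8).

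The salivary lists did not have their highest sum where Egf was highest. Markers of the granular duct, the part of the mouse submandibular gland that stores EGF, were 6 kallikrein genes with near-identical copies, so that their single values are uncertain. They summed to 739 reads in WT naive, 351 in knockout-labelled naive, 4 in WT HDM and 0 in knockout-labelled HDM skin. Klk1 had 709, 188, 1 and 0 reads, and Klk1b26 had 0, 160, 2 and 0, so that this last gene shared with Egf its peak in knockout-labelled naive skin. Klk1b22 was listed at 0 in every library. The 8 acinar genes summed to 683739, 81799, 688 and 160 reads, with Bpifa2 and Smr3a the most abundant in both naive libraries. In HDM skin Lpo led in WT (487 reads) and Amy1 and Lpo in the knockout-labelled library (84 and 71). The part of gland tissue in the Egf values was not tested.

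**Figure D3:**
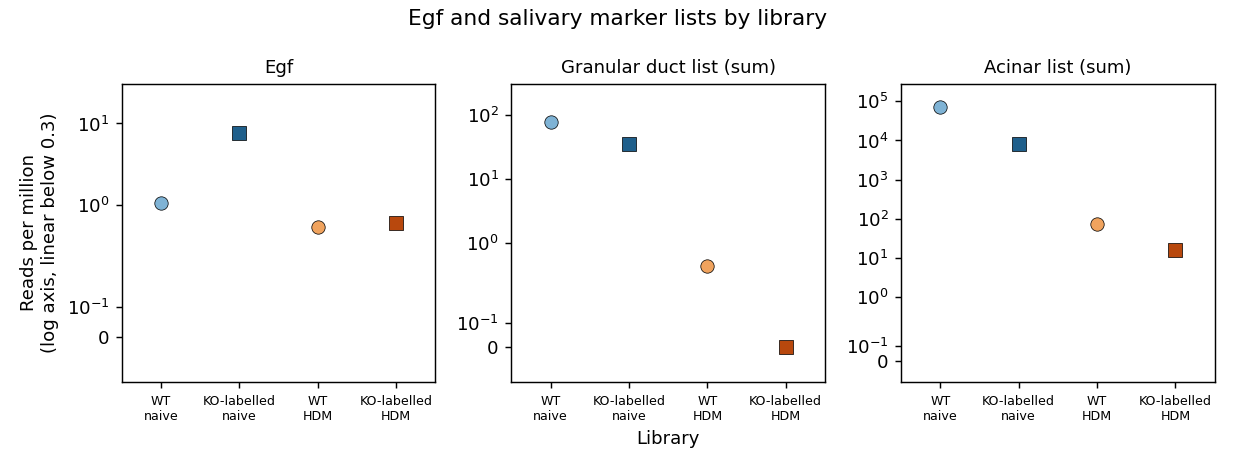
RPM of Egf (left), the summed granular duct list (middle) and the summed acinar list (right) in each library, on a log axis that is linear below 0.3. Egf peaks in knockout-labelled naive skin at 7.74 RPM, while both salivary sums are highest in WT naive skin.

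Nrg1 encodes neuregulin 1, which acts on ERBB3 and ERBB4 and is known from nerve, Schwann cell and fibroblast biology. Neither naive library held a read of it, while WT HDM skin held 33 and knockout-labelled HDM skin 12, with log2 values of 0.03, 0, 5.19 and 3.62 in the order of libraries used above. Nrg1 reads were thus seen in the HDM libraries and in neither naive one. The HDM level was higher by at least 11.2-fold in WT (exact lower limit 8.63) and at least 4.01-fold in knockout-labelled skin (2.79), and 3.16-fold lower in the knockout-labelled than in the WT HDM library (1.59 to 6.71). The annotation gives 12 protein-coding Nrg1 transcripts with 10 different 3′ ends, and which of them these reads came from was not analysed here. Schwann cell markers (6 of 6, none at 0) summed to less with HDM, from 1448 and 1393 RPM in naive to 269 and 219 in HDM skin, and fibroblast markers (5 of 5, none at 0) from 13518 and 24447 to 4468 and 3724. Col1a1 and Dcn carried most of the fibroblast sum, and in WT skin 1 of the 5 genes, Pdgfra, was higher by 2-fold (372 to 803 reads) and 2 were lower. Over all genes above the filter, 14.5% were higher and 12.7% lower in WT skin. The part of either list in the Nrg1 values was not tested.

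Counted together, HDM against naive in WT skin had 3 of the 6 genes above the filter higher by 2-fold (Egfr, Hbegf, Epgn), 1 lower (Btc) and 2 within 2-fold, with a median log2 difference of 1.33. Over all 11600 genes above the filter, 27.2% differed by 2-fold, 14.5% higher and 12.7% lower, with a median of 0.03. In knockout-labelled skin 3 were higher (Egfr, Hbegf, Epgn) and 2 lower (Erbb2, Ereg), with a median of 0.56, where 39.9% of all genes differed, 21.7% higher and 18.2% lower, with a median of 0.06. With the genes below the filter, 5 of 10 were higher in each genotype, the added ones being Areg and Nrg1, and 1 in WT and 3 in knockout-labelled skin were lower. The shares above are of genes above the filter, and no share with the genes below it was computed. The Nrg1 calls, and the Areg call in knockout-labelled skin, have naive libraries at 0 reads. Whether these counts set the family apart from other genes was not tested.

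The genotypes were counted in the same way. In naive skin 1 of 6 genes was higher in the knockout-labelled library (Erbb2) and 2 lower (Epgn, Btc), with a median of 0.22, where 30.7% of all genes differed, 13.6% higher and 17.1% lower, with a median of -0.03. Below the filter, Egf was higher, and Areg passed as lower on the log2 scale alone, from 5 reads against 0. Without Epgn, at 0 there, 1 was lower. In HDM skin 0 of 6 were higher and 1 was lower (Ereg), with a median of -0.22, where 7.72% of all genes differed, 3.06% higher and 4.66% lower, with a median of -0.01, and Nrg1 was the lower one below the filter. The HDM and genotype comparisons share libraries, so their values are not independent of each other.

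**Figure D4:**
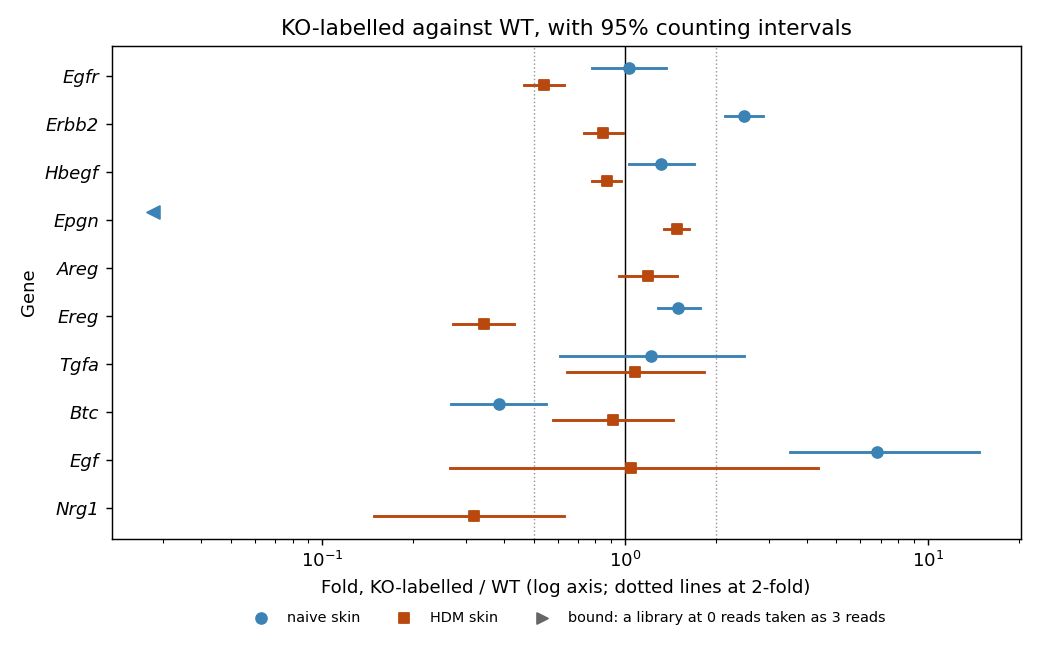
Fold of each gene in knockout-labelled against WT skin on a log axis, circles for naive and squares for HDM skin, with lines for 95% counting intervals and a triangle for the bound of Epgn (0 reads in knockout-labelled naive skin). Naive values of Areg and Nrg1 are left out for want of reads. Erbb2 and Egf stand to the right of 2-fold in naive skin, Epgn and Btc to the left, and Ereg and Nrg1 to the left in HDM skin.

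A model of all 4 libraries with a treatment and a genotype term, fitted with limma, gives an error for each gene from 1 residual degree of freedom and from the spread of other genes. It takes both genotypes to respond alike. Hbegf rose with HDM by 2.27 on the log2 scale (SE 0.47, limma with Benjamini-Hochberg adjustment over all genes, adjusted p = 0.0330), higher in both genotypes. Epgn rose by 6.53 (SE 1.43, limma adjusted p = 0.0393), a value that rests in part on the library at 0. For Egfr the estimate was 1.74 (SE 0.56, limma adjusted p = 0.134). The estimates were -0.32 for Erbb2, -0.91 for Ereg and -0.77 for Btc, with limma adjusted p of 0.764, 0.439 and 0.738. Thus 2 of 6 genes passed for treatment, where 4.12% of all genes did, 2.25% higher and 1.87% lower. For genotype 0 of 6 passed in limma, and 0.0% of all genes, although 381 genes had an unadjusted p under 0.05. None of the 6 was among those 381, the nearest being Epgn at an unadjusted limma p of 0.0612. With a pseudocount of 8, limma called 2 genes for genotype, and with no filter beyond a value above 0 it called 68, none of the 6 among them. Without an intensity trend in the error neither Hbegf (limma adjusted p = 0.288) nor Epgn (0.308) passed. With no filter beyond a value above 0, their limma adjusted p was 0.000336 and 1.14e-08. There the error came wholly from the spread of other genes, not from each gene's own residual. Over the remaining alternatives that kept them, limma adjusted p ranged from 0.0290 to 0.0380 for Hbegf and from 0.0191 to 0.0464 for Epgn.

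The other ERBB receptors and neuregulins gave little to compare. Erbb3, Erbb4 and Nrg3 were listed at 0 in every library, so that the usual partners of ERBB2 and receptors of NRG1 could not be followed. Nrg2 was lower with HDM, by 2.74-fold in WT (1.72 to 4.52) and 3.59-fold in knockout-labelled skin (2.55 to 5.16). Nrg4 had 68, 22, 23 and 107 reads in WT naive, knockout-labelled naive, WT HDM and knockout-labelled HDM skin. It was 2.90-fold lower with HDM in WT (1.78 to 4.87) and 4.88-fold higher in knockout-labelled skin (3.06 to 8.11).

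For the lists that follow, the shares of all genes past 2-fold with HDM are those given above, 27.2% in WT and 39.9% in knockout-labelled skin, and no list was tested against them. In ligand shedding, of 8 measured among 9, 1 was higher and 1 lower with HDM in WT skin (median -0.40), and 2 higher and 1 lower in knockout-labelled skin (-0.23). Timp3, an inhibitor of metalloproteases including ADAM17, was the one lower in both, by 2.18-fold (2.11 to 2.25) and 2.95-fold (2.86 to 3.05). Adam17 had log2 values of 10.87, 10.69, 10.48 and 10.42 in WT naive, knockout-labelled naive, WT HDM and knockout-labelled HDM skin. All 4 values lay within 2-fold of each other.

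Feedback inhibitors went both ways. Of 11 measured among 18, 2 were higher and 3 lower in each genotype with HDM, with medians of 0.12 in WT and -0.35 in knockout-labelled skin. Cblc, an epithelial ubiquitin ligase gene, was 3.71-fold higher in WT skin (2.81 to 4.96) and at least 63.2-fold in knockout-labelled skin (exact lower limit 50.9), where the naive library had 0 reads. Spry1, a Sprouty inhibitor of the ERK relay, was 2.24-fold lower (1.89 to 2.67) and 3.06-fold lower (2.65 to 3.53).

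Of 21 relay genes, 20 were measured. With HDM, WT skin had 4 of them higher and 2 lower (median 0.31), and knockout-labelled skin 5 higher and 1 lower (0.41). Hras, a RAS gene, was 6.85-fold higher in WT (6.25 to 7.52) and 4.08-fold in knockout-labelled skin (3.73 to 4.46). Of the 5 lists, with 2, 8, 11, 20 and 6 measured genes, only Hras passed for treatment in the 4-library fit (2.40, SE 0.35, limma adjusted p = 0.00835). Of all genes, 4.12% passed there, and the lists were not tested against that share. Nras was 2.28-fold (2.12 to 2.45) and 2.07-fold higher (1.94 to 2.22). Pik3r1, a regulatory subunit gene of PI3 kinase, was 2.45-fold (2.16 to 2.78) and 3.24-fold lower (2.93 to 3.59).

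Genes that respond to growth factor signalling numbered 9, of which 6 were measured. With HDM, 1 was higher and 0 lower in WT (median 0.66), and 3 higher and 0 lower in knockout-labelled skin (1.78). Etv4, an ETS factor gene induced by ERK signalling, was 2.62-fold higher in WT (2.01 to 3.45) and 48.7-fold in knockout-labelled skin (22.1 to 133.7), where the naive library had 6 reads. Its reads were 78 in WT naive, 200 in WT HDM and 291 in knockout-labelled HDM skin, so that the low naive library of knockout-labelled skin sets the larger fold. Etv5 and Myc were the others higher there. In WT naive, knockout-labelled naive, WT HDM and knockout-labelled HDM skin, Etv5 had 178, 31, 315 and 231 reads. Myc had 84, 19, 119 and 127. These calls, and with them the median of 1.78, rest on the knockout-labelled naive library too.

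**Figure D5:**
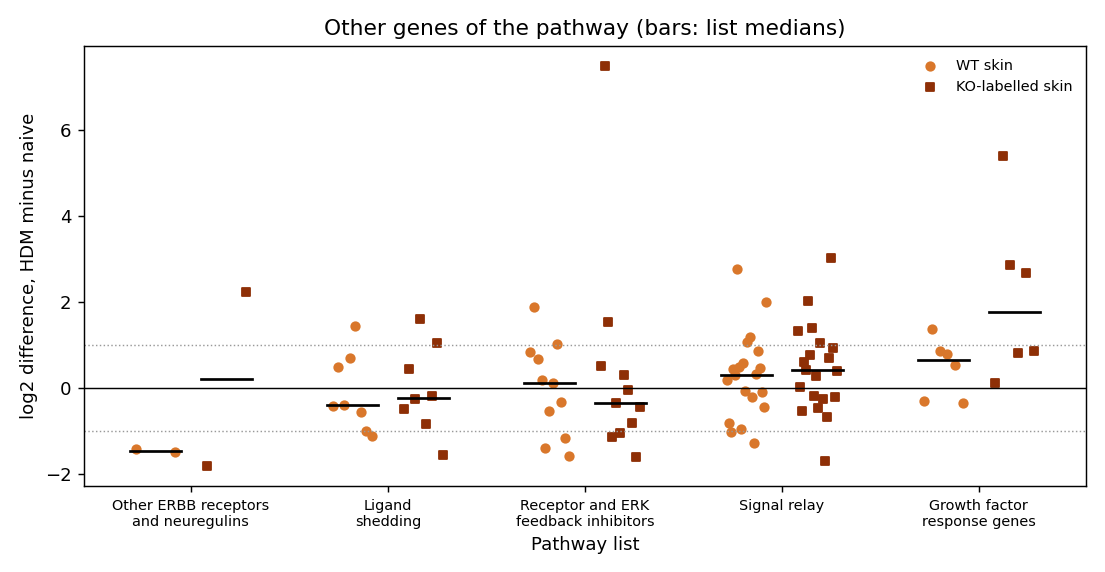
The log2 difference of HDM minus naive (vertical axis) for each measured gene of 5 pathway lists, circles for WT and squares for knockout-labelled skin, bars for list medians and dotted lines at 2-fold. Medians run from -1.46 to 1.78, and the highest point is Cblc in knockout-labelled skin at 7.48.

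The measured genes most alike in pattern, by Euclidean distance of their centred log2 values over the 4 libraries, were Cdc20, Gsdma and Trim14 for Egfr (0.13 to 0.16) and Itpk1, Nme1 and Pgam1 for Hbegf (0.14 to 0.21). For Ereg they were Ackr3, Dkkl1 and Rpgrip1l (0.14 to 0.24), and for Btc Mtmr12, Gimap9 and Il20rb (0.15 to 0.18). For Erbb2 they were M6pr, Morc3 and Gstt1 (0.04 to 0.07). With 4 libraries such likeness is common: 511 genes lay within 0.5 of Erbb2, 109 of Btc, 62 of Egfr, 37 of Hbegf and 35 of Ereg. Epgn had 1 gene within 0.5, Il1b, the interleukin 1 beta gene, with 90 reads in WT naive, 0 in knockout-labelled naive, 585 in WT HDM and 997 in knockout-labelled HDM skin. The next were Ccnb1 and Hmmr, at 0.745 and 0.998, both also at 0 in the knockout-labelled naive library.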

How the data were processed

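RNA of 4 skin libraries, 1 per group, was extracted with Trizol, and 500 ng each entered the Lexogen QuantSeq 3′ kit, per the labels' protocols. The authors deposited 1 table per library of log2 values for 23282 symbols. Per the submitters' processing notes, the tools included Bowtie2 and bedtools and the build was mm10, with no versions or roles. The sources used here do not give the scaling, annotation or strand setting. Taken off the log2 scale and less a pseudocount of 1, low values lay on multiples of 1.056, 0.936, 1.078 and 0.939 (WT naive, KO naive, WT HDM, KO HDM). Dividing by these steps gave reads, and 98.9%, 96.2%, 98.2% and 99.1% of the judged genes with up to 200 reads came out whole within 0.1 read. Higher read numbers are approximate. Repeated symbols (35 on 79 lines) were left out, and 11600 of 23203 genes passed the filter. Reads are not molecules, and intervals cover counting error only.

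Samples were grouped by title. Differences are of deposited log2 values, with no p-value for 1 library against 1. The additive fit used limma 3.58.1 (R 4.3.3), trend on, adjusted p under 0.05. Python 3.11.15, numpy 2.4.6, pandas 2.3.3 and scipy 1.17.1 did the rest, tested on simulated data. Coordinates are of GENCODE on GRCm38. All 10 members are named. Of each pathway list, up to 4 genes past 2-fold the same way in both HDM comparisons are named, and of the marker lists the most abundant. Adam17, Nrg4, Mien1, Cd3e, Cd3d, Il1rl1, Pdgfra, Lpo and Amy1, and single marker genes at 0, were named beside them after their values were seen. So were Cd3g, Cxcr2, Csf3r, Krt1, Krtdap, Krt10, Dsg1a, Ivl, Etv5 and Myc. The members and lists were chosen with earlier results of these data known. Alternatives covered scaling, pseudocount, filter and error trend. Further lists, in RPM and the order of libraries above, summed to 9809, 8945, 8172 and 2990 (suprabasal keratinocyte), to 7879, 9241, 875 and 2828 (sebaceous), to 2565, 2240, 1502 and 5.73 (cartilage) and to 1444, 2482, 1371 and 1979 (muscle).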

Additional observations from a re-analysis of the deposited data

Results flagged for a closer look

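For 4 genes the libraries moved in opposite directions in the 2 settings of a contrast, with both counting intervals away from equal levels on the deposited scale. None of these differences was tested, since 1 library per group leaves no error for them. Erbb2 was higher with HDM in WT and lower in knockout-labelled skin, a difference of responses of -1.54 on the log2 scale, which is also the difference between its genotype effects in HDM and in naive skin. Ereg was higher in the knockout-labelled library in naive skin and lower in HDM skin, with a difference of -2.13. For Hbegf the same reversal was small, -0.60. With libraries scaled by total reads, the HDM ratios of knockout-labelled to WT skin were 0.909 for Erbb2 and 0.932 for Hbegf, both with intervals that include equal levels, so the reversed genotype difference of both holds on the deposited scale and not on that one. Epgn went from lower in naive to higher in HDM skin, with a difference of 7.25 that rests on the 0 reads of the knockout-labelled naive library.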

How the results depend on the processing

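With 1 library per group, leaving out a library ends a comparison, and the 4-library fit then keeps no residual degree of freedom. No paired analysis was possible because each group holds 1 library. The genes' 2-fold calls were the same on the deposited scale, with a pseudocount of 8 and under 3 other scalings, except Areg between genotypes in naive skin, which ended with a pseudocount of 8 (-0.73) and also with genes at 0 set to 3 reads (-0.73). No called difference changed sign. Of 10 genes without the filter, 5 were higher with HDM in WT and 5 in knockout-labelled skin, 2 were higher between genotypes in naive skin, and 2 lower in HDM skin. The share of all genes without the filter was not computed, so these counts have none to stand beside. Under a stricter filter (8.12) Erbb2 and Hbegf were left, with HDM counts of 1 higher and 0 lower in WT and 1 and 1 in knockout-labelled skin, and 0 lower between genotypes in naive and 0 in HDM skin. By alternatives added after seeing the data, 1 gene was lower between genotypes in naive skin without members at 0 reads there, and counts with genes at 0 set to 3 reads, or with WT naive as the base of knockout-labelled HDM skin, did not move, although the 2 lower genes were then Ereg and Btc in place of Erbb2 and Ereg. Treatment calls in the 4-library fit were 1 under the stricter filter and 0 without an intensity trend, in place of 2, and the cause of the second was not tested. Depth limits Areg, Tgfa, Egf and Nrg1 most.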
